A study of Mus musculus with 8 samples.

Results

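The transcripts of 40 genes of the core autophagy machinery were followed in heart ventricles of mice after inducible deletion of Rbx2. The 40 were taken by name, as genes of initiation, the phosphatidylinositol 3-kinase complexes, membrane supply, conjugation, the ATG8 family, cargo recognition and transcriptional control. Each name matched 1 row of the deposited table, which holds 35275 genes. All 40 passed the filter on low values, as did 13050 genes in all. PolyA RNA came from heart ventricles of 4 samples labelled WT and 4 labelled RBX2iCKO, all adult by the design. The protein RBX2 (SAG), the product of the gene Rnf7, is a RING-finger component of cullin-RING ubiquitin ligases. Rbx2 was deleted with Mer-Cre-Mer, a Cre that tamoxifen switches on, driven by the αMHC promoter of cardiomyocytes. All 8 samples carry tamoxifen as their treatment, and neither sex nor time after tamoxifen is given in the labels used here. The titles of all 8 begin with MCM, which is not spelled out. The labels tie no library to a litter or day, and p-values reflect only how far these samples spread, which may be technical.

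Macroautophagy encloses cytoplasm in a double membrane and delivers it to the lysosome. The ULK1 kinase complex starts the process, a lipid kinase complex built on VPS34 and Beclin 1 marks the site, and ATG9 vesicles with ATG2 and WIPI proteins supply and extend the membrane. A ubiquitin-like conjugation system then attaches ATG8 proteins (LC3 and GABARAP) to the membrane, where cargo receptors dock. In heart muscle the pathway is known for the turnover of mitochondria and of long-lived proteins, and many of its proteins are regulated by phosphorylation and cleavage, which transcript levels do not show.

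The fragment totals behind the deposited FPKM (fragments divided by gene length and by the library total) were 18513924 to 23043686 per library. Across the 40 genes the fragments behind 1 value ran from 91 for Atg4c to 10708 for Sqstm1. Rnf7 stood at 37.3 ± 2.38 FPKM for WT and 7.15 ± 0.28 FPKM for RBX2iCKO (SD, n = 4 each; two-sided exact permutation p = 0.0286, the smallest that 70 assignments allow). Esr1, whose ligand-binding domain is part of Mer-Cre-Mer, stood at 0.757 ± 0.883 FPKM for WT and 331 ± 51.5 FPKM for RBX2iCKO (SD, n = 4 each), so the transgene transcript was seen at that level only in RBX2iCKO, and effects of Rbx2 loss and of the transgene with tamoxifen cannot be told apart. Mitochondrial-encoded transcripts made up 23.8% ± 1.04 of the fragments for WT and 16.9% ± 2.06 for RBX2iCKO (SD, n = 4 each). FPKM is a share of the library, and the median of all genes tested lay 0.21 higher in RBX2iCKO on the log2(FPKM + 1) scale. Median-of-ratios scaling brought that median to 0.02, and calls below are therefore given as deposited and after this scaling. The samples are labelled cardiomyocytes, but markers of other cell types were present, none of them at 0 in all 8 libraries. Summed FPKM of 10 cardiomyocyte markers was 39240 to 41090 in WT and 35940 to 42610 in RBX2iCKO, with overlap. Of the 10, 1 was higher (Actc1) and 2 were lower (Tnni3 and Pln) as deposited, and after scaling 3 were lower (Ryr2 as well), 9 had differences below 0 and the median was -0.26. For 10 fibroblast markers it was 916.5 to 1352 and 1438 to 2250, with 9 of 10 higher as deposited and 8 after scaling. For 10 endothelial markers it was 188.7 to 247.4 and 241.9 to 293.1, with 5 of 10 higher as deposited and 0 after scaling by limma, where 2 were higher and 1 lower at an unadjusted p under 0.05. For 10 macrophage markers it was 119.7 to 176.6 and 123.1 to 294.1, with 4 higher as deposited and 1 after scaling. For 9 mural markers it was 301.3 to 386.6 and 246.6 to 408.5, with 2 higher and 1 lower as deposited and 1 in each direction after scaling. Of all genes tested, 33.5% were higher and 3.52% lower as deposited, and 8.78% and 10.9% after scaling. The shares higher were 40% and then 10% for macrophage markers, and 22.2% and then 11.1% for mural markers, not far from those of all genes. The 5 atrial cardiomyocyte markers summed to 4.34 to 373.6 FPKM in WT and 394 to 1064 FPKM in RBX2iCKO. The sums did not overlap, but taken singly only 1 of the 5 markers had all RBX2iCKO libraries above all WT libraries. Of the 5 only Nppa was called (log2 5.31 as deposited), and Myl7 spread widely, with WT libraries at 0.422 to 237 FPKM and RBX2iCKO libraries at 1.32 to 361 FPKM. Erythroid transcripts summed to 3622 FPKM in RBX2iCKO replicate 1, against 200.1 to 540 in the other 7 libraries. The part of these cell types in the differences below was not tested, and in bulk RNA a smaller number of cells of a type and less RNA per cell cannot be told apart.

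Transcript levels of the core machinery differed by about as much as the median of all genes. As deposited, 11 of the 40 genes were higher in RBX2iCKO and 0 were lower, which is 27.5% higher against 33.5% of all genes tested and 0 lower against 3.52% (limma, Benjamini-Hochberg adjusted over all genes). At an unadjusted p under 0.05 limma had 18 higher and 0 lower, and limma-voom on the recovered fragments called 0 lower. After scaling 0 were higher by limma, against 8.78% of all genes, and 3 were lower, against 10.9%. At an unadjusted p under 0.05 the scaled limma fit had 2 higher and 6 lower. The shares of all genes at that unadjusted threshold are not given here. In 15 of the 40 all RBX2iCKO libraries lay above all WT libraries as deposited, against 34% of all genes, and in 0 below, against 3.79%. After scaling that was so in 1 and 6 of the 40, against 11.6% and 14%. The median log2 difference of the 40 was 0.21, the same as that of all genes, and after scaling it was -0.03 against 0.02. Single differences ran from -0.17 to 0.52. Of the 40 genes, 36 lay within 0.25 of the median of all genes on the log2 scale, which is 90% against 67.6% of all genes tested. These counts describe the list and are no test of it. The 11 genes that were higher as deposited were Atg101, Becn1, Uvrag, Rubcn, Wipi1, Wdr45b, Atg3, Atg7, Atg4b, Gabarap and Tbk1. The 3 that were lower after scaling were Atg9a, Atg10 and Map1lc3a. The 11 genes are found in 7 of 9 functional classes, so no stage of the pathway held them all.

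**Figure D1:**
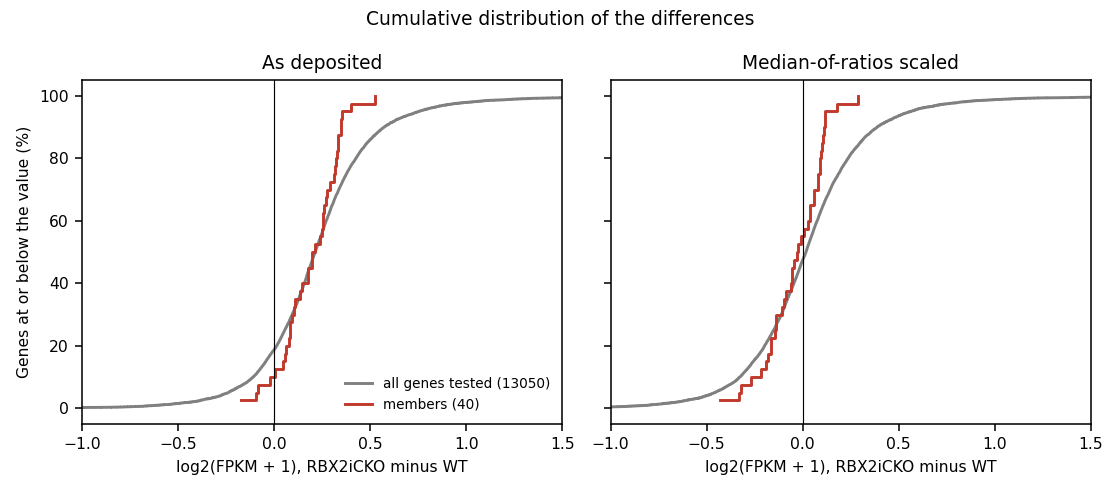
Cumulative share of genes (vertical axis, percent) at or below each log2 difference, RBX2iCKO minus WT in log2(FPKM + 1) units (horizontal axis), for the 40 members in red and the 13050 genes tested in grey, as deposited on the left and after median-of-ratios scaling on the right. The 2 curves cross near the middle in both panels, at medians of 0.21 and 0.21 as deposited and of -0.03 and 0.02 after scaling, and the members' curve is the steeper.

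**Figure D2:**
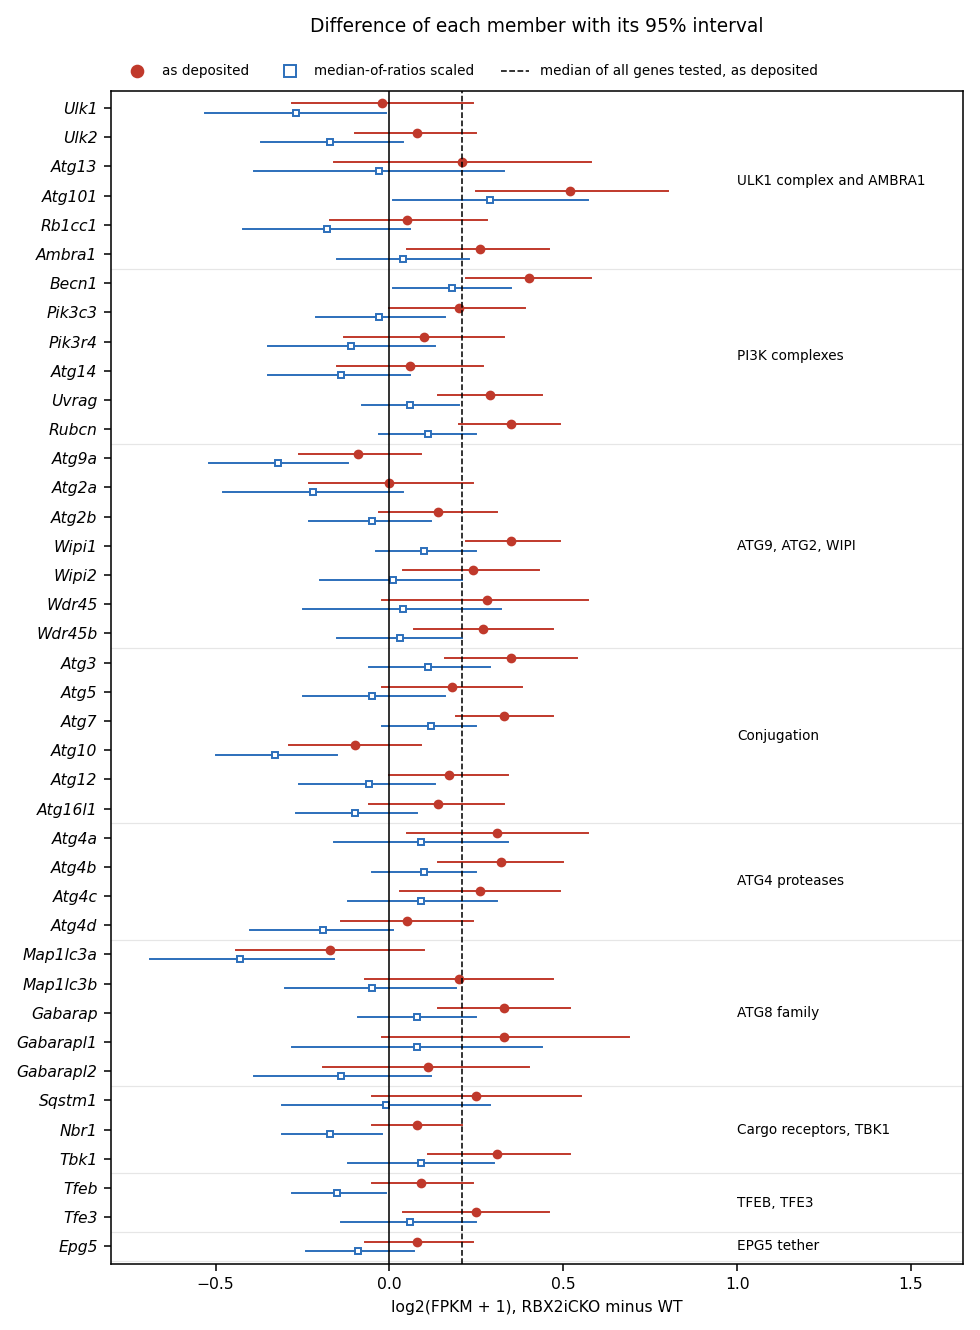
Log2 difference of each member, RBX2iCKO minus WT in log2(FPKM + 1) units, with its 95% interval from limma, as deposited (red points) and after median-of-ratios scaling (open squares), grouped by role. The dashed line is the median of all genes tested, 0.21, and most intervals as deposited include it, with Atg9a, Atg10 and Map1lc3a among those to its left.

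Of the 6 initiation genes, 1 was higher as deposited (16.7%, against 33.5% of all genes tested). Atg101, which stabilises ATG13 in the ULK1 complex, measured 8.65, 9.11, 10.7 and 8.76 FPKM in WT and 12.7, 11.9, 17.8 and 13.4 FPKM in RBX2iCKO. The groups did not overlap, and RBX2iCKO replicate 3 was the highest library. Its log2 difference was 0.52 (limma, SE 0.12, adjusted p = 0.012), the largest of the 40, and 0.29 (limma adjusted p = 0.139) after scaling. Atg101 lies on the plus strand of chromosome 15, from 101284272 to 101290945 in mm10, and its values rest on 197 to 423 fragments per library. Ulk1, the kinase that starts autophagosome formation, measured 22.0, 25.3, 23.2 and 28.6 FPKM in WT and 21.8, 25.2, 29.4 and 21.5 FPKM in RBX2iCKO. The ranges of the groups lay over each other almost entirely, with a log2 difference of -0.02 (limma, SE 0.12, adjusted p = 0.879). Its relative Ulk2 measured 15.9, 19.4, 18.5 and 18.5 FPKM in WT and 20.2, 18.9, 17.6 and 19.7 FPKM in RBX2iCKO, again with overlap and with a log2 difference of 0.08 (limma, SE 0.08, adjusted p = 0.445). The ratio of Ulk1 to Ulk2 within a library, which does not depend on scaling, was 1.37 ± 0.126 for WT and 1.29 ± 0.276 for RBX2iCKO (SD, n = 4 each; two-sided exact permutation p = 0.571). Atg13, the adaptor that joins the kinase to the scaffold, stood at 15.7 ± 0.919 FPKM for WT and 18.9 ± 5.75 FPKM for RBX2iCKO (SD, n = 4 each). Replicate 3 of RBX2iCKO was at 27.3 FPKM, where the other 3 libraries were at 14.8 to 17.6. Rb1cc1, which encodes the scaffold FIP200, and Ambra1, a regulator of Beclin 1 and ULK1, had log2 differences of 0.05 and 0.26, and neither passed (limma adjusted p = 0.688 and 0.0543).

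**Figure D3:**
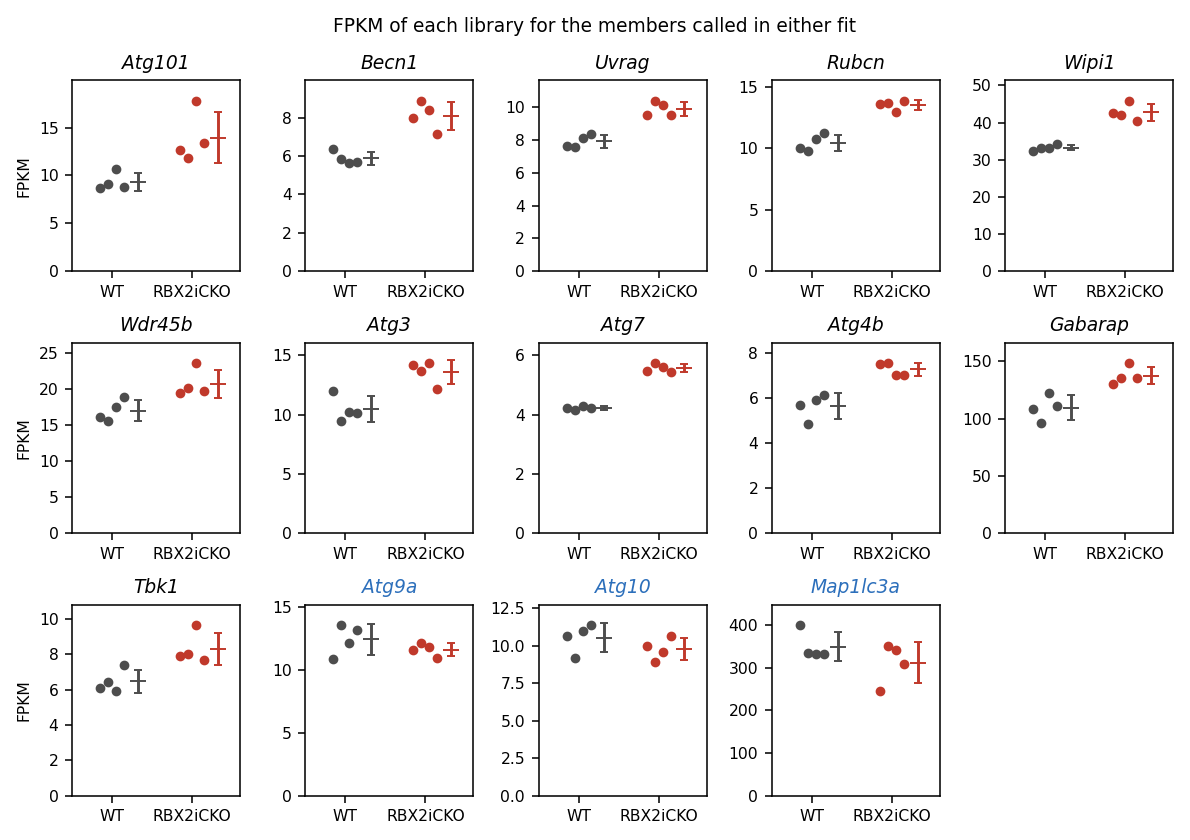
FPKM of every library (points) with the mean and SD of each group of 4 (bars) for the 11 members higher as deposited (black names) and the 3 lower after scaling (blue names). For each of the 11, all 4 RBX2iCKO points lie above all 4 WT points, while for Atg9a, Atg10 and Map1lc3a the groups overlap as deposited.

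Of the 6 genes of the phosphatidylinositol 3-kinase complexes, 3 were higher as deposited (50%, against 33.5% of all genes tested). After scaling 0 of these 6 were higher, against 8.78% of all genes. Becn1, which encodes the scaffold Beclin 1, measured 6.397, 5.84, 5.64 and 5.697 FPKM in WT and 7.99, 8.898, 8.42 and 7.17 FPKM in RBX2iCKO. All RBX2iCKO libraries were above all WT libraries, and Becn1 differed by 0.40 (limma, SE 0.08, adjusted p = 0.00653) on the log2 scale, or 0.18 (limma adjusted p = 0.131) after scaling. Rubcn, encoding Rubicon, an inhibitor of the VPS34 complex and of autophagosome maturation, measured 9.97, 9.79, 10.8 and 11.2 FPKM in WT and 13.6, 13.6, 12.9 and 13.9 FPKM in RBX2iCKO. The 4 RBX2iCKO values were close together and above all WT values. The log2 difference was 0.35 (limma, SE 0.07, adjusted p = 0.0057) and, after scaling, 0.11 (limma adjusted p = 0.248). Uvrag, the subunit of the endosomal form of the complex, measured 7.63, 7.57, 8.14 and 8.41 FPKM in WT and 9.55, 10.4, 10.2 and 9.56 FPKM in RBX2iCKO. It was higher in every RBX2iCKO library as deposited, with a log2 difference of 0.29 (limma, SE 0.07, adjusted p = 0.0107), and stood at 0.06 (limma adjusted p = 0.527) after scaling. Atg14, which directs the complex to autophagosome formation, had no such difference, at 3.92 ± 0.174 FPKM for WT and 4.17 ± 0.616 FPKM for RBX2iCKO (SD, n = 4 each), with a log2 difference of 0.06 (limma, SE 0.09, adjusted p = 0.606). The catalytic subunit gene Pik3c3 (VPS34) and the gene of its regulatory kinase Pik3r4 (VPS15) had log2 differences of 0.20 and 0.10, and neither passed (limma adjusted p = 0.0945 and 0.433). As deposited, an activating subunit gene (Becn1) and an inhibitor gene (Rubcn) were thus higher by similar amounts, 1.38 and 1.295 times the WT mean. The difference between these 2 increases was not tested.

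In the group that supplies and extends the membrane, Wipi1 and Wdr45b were higher as deposited. Wipi1, a phosphoinositide-binding protein of the early membrane, measured 32.3, 33.1, 33.3 and 34.2 FPKM in WT and 42.5, 42.1, 45.9 and 40.4 FPKM in RBX2iCKO. The WT values were close together, and each RBX2iCKO value exceeded them. Its log2 difference of 0.35 (limma, SE 0.06, adjusted p = 0.00399) had the smallest adjusted p of the 40, and after scaling it was 0.10 (limma adjusted p = 0.289). Wipi2, the relative that recruits ATG16L1, measured 7.91, 9.02, 8.11 and 8.73 FPKM in WT and 9.18, 10.5, 11.6 and 9.34 FPKM in RBX2iCKO, without overlap, but did not pass, at 0.24 (limma, SE 0.09, adjusted p = 0.056). The Wipi1 to Wipi2 ratio was 3.94 ± 0.201 for WT and 4.23 ± 0.313 for RBX2iCKO (SD, n = 4 each; two-sided exact permutation p = 0.229). Wdr45b, which encodes WIPI3, measured 16.1, 15.5, 17.5 and 18.8 FPKM in WT and 19.4, 20.2, 23.6 and 19.6 FPKM in RBX2iCKO, with a log2 difference of 0.27 (limma, SE 0.09, adjusted p = 0.0379) and no overlap. That call was lost when WT replicate 1, 2 or 3 or RBX2iCKO replicate 2, 3 or 4 was left out. It was also lost with the number series of the sample titles as a covariate (log2 0.23, limma adjusted p = 0.0536), with array weights, with no filter on low values and with mitochondrial-encoded genes removed. Over the 25 alternatives its adjusted p ran from 0.0341 to 0.963. Wdr45, encoding WIPI4, measured 12.4, 12.4, 15.1 and 14.2 FPKM in WT and 13.7, 17.6, 21.2 and 14.5 FPKM in RBX2iCKO, with overlapping groups. Its log2 difference was 0.28 (limma, SE 0.13, adjusted p = 0.124), and the Wdr45 to Wdr45b ratio was 0.796 ± 0.0466 for WT and 0.805 ± 0.0962 for RBX2iCKO (SD, n = 4 each; two-sided exact permutation p = 0.914).

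Atg9a encodes the lipid scramblase of the vesicles that seed the membrane, and it fell relative to other genes. It lies on the minus strand of chromosome 1, from 75180860 to 75192196 in mm10, and 46 bases of its exons overlap Ankzf1 on the opposite strand. As deposited it measured 10.8, 13.5, 12.1 and 13.1 FPKM in WT and 11.6, 12.1, 11.8 and 10.9 FPKM in RBX2iCKO, with overlapping groups and a log2 difference of -0.09 (limma, SE 0.08, adjusted p = 0.405). After scaling it stood at 13.6 ± 1.75 FPKM for WT and 10.6 ± 0.314 FPKM for RBX2iCKO (SD, n = 4 each), without overlap, and the log2 difference was -0.32 (limma adjusted p = 0.0334). The scaled call was lost when WT replicate 2, 3 or 4 or RBX2iCKO replicate 1, 2 or 4 was left out. The lipid transfer genes Atg2a and Atg2b did not pass in either fit. Atg2a measured 5.78, 7.35, 5.996 and 6.56 FPKM in WT and 5.41, 6.96, 7.39 and 6.04 FPKM in RBX2iCKO, and the groups overlapped. Atg2b measured 3.11, 3.14, 3.36 and 3.05 FPKM in WT and 3.85, 3.32, 3.902 and 3.35 FPKM in RBX2iCKO, where RBX2iCKO replicates 2 and 4 lay just under the highest WT value. Their log2 differences were 0.00 and 0.14 (limma adjusted p = 0.989 and 0.156), and their ratio was 2.03 ± 0.26 for WT and 1.799 ± 0.291 for RBX2iCKO (SD, n = 4 each; two-sided exact permutation p = 0.314).

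Of the 6 conjugation genes, Atg7 and Atg3 were higher as deposited, and Atg10 was lower after scaling. ATG7 is the activating enzyme for both ubiquitin-like chains, ATG3 is the conjugating enzyme that passes ATG8 proteins to lipid, and ATG10 is the conjugating enzyme that joins ATG12 to ATG5. Atg7 measured 4.23, 4.15, 4.29 and 4.23 FPKM in WT and 5.47, 5.74, 5.602 and 5.44 FPKM in RBX2iCKO. Its values were close within each group, and the groups stood apart as deposited and after scaling. The log2 difference was 0.33 (limma, SE 0.06, adjusted p = 0.00505), and 0.12 (limma adjusted p = 0.21) after scaling. Atg3 measured 12.02, 9.45, 10.2 and 10.2 FPKM in WT and 14.2, 13.6, 14.3 and 12.2 FPKM in RBX2iCKO, with RBX2iCKO replicate 4 only just above WT replicate 1. Its log2 difference was 0.35 (limma, SE 0.09, adjusted p = 0.0147), and 0.11 (limma adjusted p = 0.335) after scaling. Atg10, in contrast, measured 10.6, 9.18, 11.01 and 11.4 FPKM in WT and 9.97, 8.90, 9.598 and 10.7 FPKM in RBX2iCKO. These groups overlapped as deposited, with a log2 difference of -0.10 (limma, SE 0.08, adjusted p = 0.37). After scaling Atg10 stood at 11.5 ± 0.608 FPKM for WT and 8.95 ± 0.825 FPKM for RBX2iCKO (SD, n = 4 each), without overlap, and the log2 difference was -0.33 (limma adjusted p = 0.0183). This scaled call held with any library left out other than WT replicate 4. The difference between Atg10 and its partners was not tested. Atg5, Atg12 and Atg16l1, whose products form the complex that selects the site of lipidation, had log2 differences of 0.18, 0.17 and 0.14, and none passed in either fit (limma adjusted p = 0.142, 0.0937 and 0.226 as deposited).

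Since TFEB and TFE3 bind the letters CACGTG, the core of the element found at many lysosomal and autophagy genes, the promoter windows of the members were read for it. RefSeq windows of build GRCm38.p6, from 250 bases before to 50 bases after a start site, were found for 32 of the 40 genes. CACGTG reads the same on both strands. It was in the windows of 6 of 32 members (18.8%), Atg3, Atg5, Atg7, Atg14, Rubcn and Tbk1, against 8.09% of the 27025 genes with a window and 7.15% of all 32851 windows. The 27025 genes include genes not tested here, whereas all 40 members were tested. Of tested genes with a window, 1151 held the letters and 8706 did not, a larger share than 8.09%. The share of the members was not tested against either background. The motif was chosen after the differences were seen. Of the 6 members that hold it, 4 were higher as deposited, and of the 26 without it 5 were. Over all genes tested with a window, 36.2% of 1151 with the letters and 34.7% of 8706 without them were higher. The 250 bases before the start are shown for the 4 members with the letters wholly before the start site, of which Atg3, Atg7 and Rubcn were higher as deposited and Atg5 was not called. CACGTG is in capitals:
Atg3 (chr16:45158579-45158828, plus strand): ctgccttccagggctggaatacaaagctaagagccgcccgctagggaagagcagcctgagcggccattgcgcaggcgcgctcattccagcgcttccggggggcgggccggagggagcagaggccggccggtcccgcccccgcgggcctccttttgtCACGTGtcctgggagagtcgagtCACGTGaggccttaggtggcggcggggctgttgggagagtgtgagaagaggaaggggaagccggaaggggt
Atg7 (chr6:114670846-114671095, plus strand): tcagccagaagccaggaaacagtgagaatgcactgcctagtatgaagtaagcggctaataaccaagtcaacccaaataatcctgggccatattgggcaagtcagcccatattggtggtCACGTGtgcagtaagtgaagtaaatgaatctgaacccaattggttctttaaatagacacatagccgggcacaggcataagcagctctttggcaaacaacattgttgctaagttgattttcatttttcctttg
Rubcn (chr16:32868367-32868616, minus strand): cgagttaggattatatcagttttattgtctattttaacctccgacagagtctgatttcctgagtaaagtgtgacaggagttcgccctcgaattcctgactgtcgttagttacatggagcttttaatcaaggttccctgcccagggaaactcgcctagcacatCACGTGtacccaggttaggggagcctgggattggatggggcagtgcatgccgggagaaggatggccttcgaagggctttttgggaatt
Atg5 (chr10:44268089-44268338, plus strand): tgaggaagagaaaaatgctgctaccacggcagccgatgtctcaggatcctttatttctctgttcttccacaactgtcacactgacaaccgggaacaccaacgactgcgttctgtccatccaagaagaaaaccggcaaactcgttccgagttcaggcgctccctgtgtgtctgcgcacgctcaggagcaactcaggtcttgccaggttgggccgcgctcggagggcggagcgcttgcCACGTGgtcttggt

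Atg3 holds the letters at 2 places, with first bases at positions -94 and -71 from the start site, Atg7 at -132, Rubcn at -88 and Atg5 at -14. In Tbk1 the first base is at position 6, and in Atg14 the letters straddle the start. The Atg7 and Atg14 windows belong to starts inside the genes as GENCODE draws them, and the Rubcn window to the inner of its 2 starts. A match is a description of letters and shows no binding.

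Among the ATG4 proteases, which trim ATG8 proteins before lipidation and release them afterwards, Atg4b was higher as deposited. It measured 5.69, 4.84, 5.91 and 6.14 FPKM in WT and 7.501, 7.56, 7.02 and 7.01 FPKM in RBX2iCKO, without overlap, with a log2 difference of 0.32 (limma, SE 0.08, adjusted p = 0.015) and 0.10 (limma adjusted p = 0.329) after scaling. Atg4d measured 14.99, 16.6, 18.2 and 15.3 FPKM in WT and 15.8, 18.2, 15.5 and 17.9 FPKM in RBX2iCKO, with overlapping groups and a log2 difference of 0.05 (limma, SE 0.08, adjusted p = 0.669). Of its exon bases, 19.3% overlap Kri1 on the opposite strand, so their reads may be mixed. The Atg4d to Atg4b ratio was 2.91 ± 0.425 for WT and 2.32 ± 0.2 for RBX2iCKO (SD, n = 4 each; two-sided exact permutation p = 0.0571). Atg4a stood at 5.59 ± 0.518 FPKM for WT and 7.23 ± 1.18 FPKM for RBX2iCKO (SD, n = 4 each) and did not pass (limma adjusted p = 0.0584). Atg4c, the lowest of the 40 in fragments, stood at 1.58 ± 0.14 FPKM for WT and 2.096 ± 0.349 FPKM for RBX2iCKO (SD, n = 4 each) and did not pass either (limma adjusted p = 0.0731). In both, RBX2iCKO replicate 3 lay inside the WT range while the other 3 libraries lay above it. Without that library both passed as deposited.

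By FPKM the ATG8 family was dominated by Map1lc3a, which encodes LC3A. Map1lc3a measured 399, 334, 331 and 331 FPKM in WT and 244, 349.7, 342 and 309 FPKM in RBX2iCKO. WT replicate 1 was far above the other WT libraries, RBX2iCKO replicate 1 was the lowest of all 8, and the rest overlapped. The log2 difference was -0.17 (limma, SE 0.12, adjusted p = 0.266). After scaling the groups did not overlap, at 380.4 ± 34.6 FPKM for WT and 284 ± 42.5 FPKM for RBX2iCKO (SD, n = 4 each), with a log2 difference of -0.43 (limma adjusted p = 0.0326). This scaled call was lost when WT replicate 1, 2 or 3 or RBX2iCKO replicate 4 was left out. The gene lies on the plus strand of chromosome 2, from 155276297 to 155278073 in mm10.

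As deposited the other 4 ATG8 genes had differences above 0, while after scaling Map1lc3b and Gabarapl2 were at -0.05 and -0.14 and were not called. Gabarap measured 108, 95.96, 123 and 111 FPKM in WT and 130.1, 136, 148 and 136 FPKM in RBX2iCKO, without overlap. It was higher as deposited, with a log2 difference of 0.33 (limma, SE 0.08, adjusted p = 0.0154), and 0.08 (limma adjusted p = 0.495) after scaling. Map1lc3b, which encodes the LC3B form commonly used as a marker of autophagosomes, measured 46.7, 39.1, 54.2 and 49.4 FPKM in WT and 46.6, 54.6, 64.8 and 51.8 FPKM in RBX2iCKO. The groups overlapped, and the log2 difference was 0.20 (limma, SE 0.12, adjusted p = 0.214). Gabarapl1 measured 46.9, 46.6, 45.2 and 44.3 FPKM in WT and 51.9, 52.4, 85.2 and 48.3 FPKM in RBX2iCKO, with RBX2iCKO replicate 3 far above all others. Although each RBX2iCKO library exceeded each WT library, the log2 difference of 0.33 (limma, SE 0.16, adjusted p = 0.119) did not pass. Gabarapl2 measured 25.7, 18.3, 29.2 and 23.6 FPKM in WT and 23.2, 27.4, 28.03 and 24.8 FPKM in RBX2iCKO, overlapping, with a log2 difference of 0.11 (limma, SE 0.13, adjusted p = 0.524).

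Because FPKM is per length, levels of the family can be set beside each other within a library, if the lengths used match the transcripts present. The length behind the fragment counts was 1112 bases for Map1lc3a and 4138 bases for Map1lc3b. Fragments per library were 5098 to 8960 for Map1lc3a and 3267 to 5203 for Map1lc3b, so their distance in FPKM rests largely on these lengths. Whether the lengths fit the transcripts of these hearts was not tested. The summed FPKM of the 5 genes was 575.5 ± 39.4 for WT and 589 ± 73.4 for RBX2iCKO (SD, n = 4 each), with overlap. Map1lc3a made up 63.7%, 62.5%, 56.8% and 59.2% of it in WT and 49.3%, 56.4%, 51.1% and 54.3% in RBX2iCKO. Every RBX2iCKO share was under every WT share, by little between RBX2iCKO replicate 2 and WT replicate 3. Gabarap made up 17.2%, 18%, 21.1% and 19.8% in WT and 26.2%, 21.9%, 22.2% and 23.8% in RBX2iCKO, without overlap in the other direction. The shares of Map1lc3b, Gabarapl1 and Gabarapl2 were 8.23%, 7.97% and 4.19% in WT and 9.25%, 10.03% and 4.41% in RBX2iCKO as means. These shares do not depend on library scaling, but they were singled out after their values were seen and were not tested. Of the ratios tested, Map1lc3a to Map1lc3b was 7.47 ± 1.26 for WT and 5.72 ± 0.567 for RBX2iCKO (SD, n = 4 each; two-sided exact permutation p = 0.0571), with overlap. Gabarapl1 to Gabarap was 0.422 ± 0.0501 for WT and 0.428 ± 0.0986 for RBX2iCKO (SD, n = 4 each; two-sided exact permutation p = 1), and Gabarapl1 to Gabarapl2 was 1.95 ± 0.426 for WT and 2.28 ± 0.524 for RBX2iCKO (SD, n = 4 each; two-sided exact permutation p = 0.343).

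**Figure D4:**
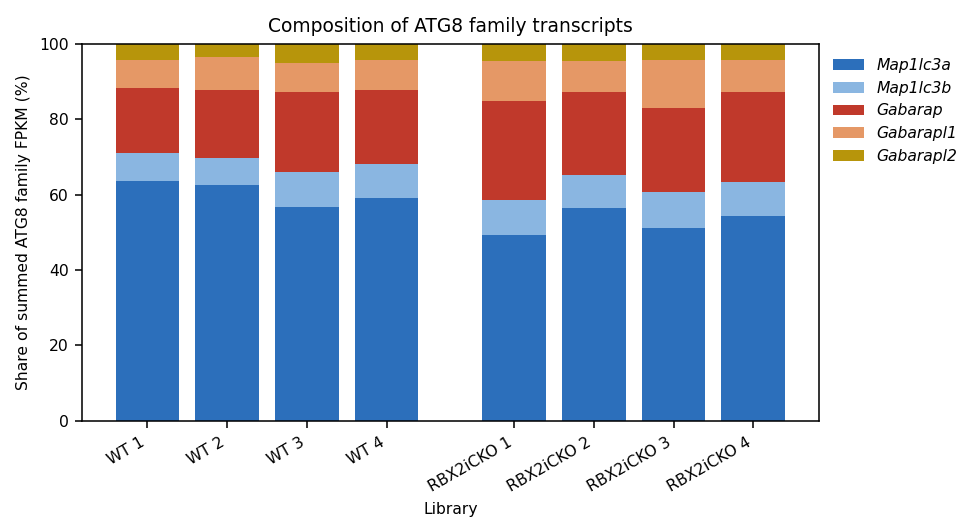
Share of each ATG8 family gene in the summed FPKM of the family (vertical axis, percent), 1 bar per library. The Map1lc3a segment spans 56.8% to 63.7% in the 4 WT bars and 49.3% to 56.4% in the 4 RBX2iCKO bars, and the Gabarap segment 17.2% to 21.1% and 21.9% to 26.2%.

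Of the cargo receptor genes, Sqstm1 (p62) and Nbr1 did not pass, and the kinase gene Tbk1 was higher as deposited. Sqstm1, the ubiquitin-binding receptor that is itself degraded by autophagy, measured 147, 136, 118 and 137 FPKM in WT and 156, 151, 208 and 131 FPKM in RBX2iCKO. RBX2iCKO replicate 4 lay inside the WT range and replicate 3 well above it, and the log2 difference was 0.25 (limma, SE 0.13, adjusted p = 0.163). Nbr1, a receptor of similar build, measured 28.5, 29.6, 29.1 and 29.96 FPKM in WT and 31.8, 30.1, 32.5 and 29.8 FPKM in RBX2iCKO. As deposited its values were close in all 8 libraries, with a log2 difference of 0.08 (limma, SE 0.06, adjusted p = 0.28) and a 95% interval from -0.05 to 0.21. After scaling the direction turned and the groups did not overlap, at 32 ± 1.72 FPKM for WT and 28.4 ± 1.26 FPKM for RBX2iCKO (SD, n = 4 each). The scaled log2 difference was -0.17 (limma adjusted p = 0.102), with a 95% interval from -0.31 to -0.02. The Sqstm1 to Nbr1 ratio was 4.59 ± 0.455 for WT and 5.17 ± 0.85 for RBX2iCKO (SD, n = 4 each; two-sided exact permutation p = 0.314). Tbk1, a kinase that phosphorylates cargo receptors, measured 6.11, 6.46, 5.94 and 7.39 FPKM in WT and 7.897, 8.003, 9.64 and 7.67 FPKM in RBX2iCKO. Its groups did not overlap, and the log2 difference was 0.31 (limma, SE 0.09, adjusted p = 0.0268), or 0.09 (limma adjusted p = 0.528) after scaling. The call was lost without WT replicate 1 and without WT replicate 2 or 3.

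Neither of the transcription factor genes passed in limma with all libraries, as deposited or after scaling. Tfeb, the main activator of lysosomal and autophagy genes, measured 13.7, 12.3, 13.1 and 12.3 FPKM in WT and 13.7, 14.6, 13.5 and 13.3 FPKM in RBX2iCKO. As deposited the ranges overlapped, with a log2 difference of 0.09 (limma, SE 0.06, adjusted p = 0.274) and a 95% interval from -0.05 to 0.24. After scaling all RBX2iCKO libraries lay below all WT libraries, at 14.02 ± 0.678 FPKM for WT and 12.6 ± 0.307 FPKM for RBX2iCKO (SD, n = 4 each). That log2 difference was -0.15 (limma adjusted p = 0.127), with a 95% interval from -0.28 to -0.01. Its relative Tfe3 was at a lower level and measured 2.76, 2.60, 2.99 and 2.73 FPKM in WT and 3.98, 3.87, 3.22 and 2.96 FPKM in RBX2iCKO. RBX2iCKO replicate 4 lay just inside the WT range, and the log2 difference was 0.25 (limma, SE 0.09, adjusted p = 0.0592). It passed without RBX2iCKO replicate 4 (log2 0.31, limma adjusted p = 0.0354) and in limma-voom on the recovered fragments (log2 0.33, adjusted p = 0.0443), and over the 25 alternatives its adjusted p ran from 0.0354 to 0.954. The Tfeb to Tfe3 ratio was 4.65 ± 0.257 for WT and 3.98 ± 0.464 for RBX2iCKO (SD, n = 4 each; two-sided exact permutation p = 0.0571). Over the 10 ratios tested, 0 had an exact p under 0.05, and the smallest value adjusted over the 10 was 0.19. Epg5, which encodes a tether for fusion of autophagosomes with lysosomes, stood at 1.89 ± 0.0447 FPKM for WT and 2.06 ± 0.0677 FPKM for RBX2iCKO (SD, n = 4 each), with all RBX2iCKO libraries above all WT libraries by little and a log2 difference of 0.08 (limma, SE 0.07, adjusted p = 0.355). After scaling the order turned, with all RBX2iCKO libraries below all WT libraries and a log2 difference of -0.09 (limma adjusted p = 0.426). The factor proteins act through their location in the cell, which was not measured.

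RBX2iCKO replicate 3 carried the highest level of its group for 21 of the 40 genes (52.5%), against 30.4% of all genes tested. Its median over the 40 genes was 0.25 above the WT mean on the log2 scale, where the other RBX2iCKO libraries were at 0.13 to 0.19. The medians of all genes were alike, at 0.21 in this library and 0.18 to 0.23 in the others. After scaling its median over the 40 was 0.05, and that of the other 3 was -0.09 to -0.07. Atg13, Atg101, Gabarapl1, Sqstm1, Wdr45 and Tbk1 were among the genes it led, and Atg4a and Atg4c were lowest there. The same library had the smallest mitochondrial-encoded share, 14.6% against 15.8% to 18.9%, and the lowest summed markers of its group for fibroblasts (1438 FPKM), endothelial cells (241.9 FPKM), mural cells (246.6 FPKM) and macrophages (123.1 FPKM). Their part in these values was not tested. Without this library the median log2 difference of the 40 was 0.15 and 12 genes were higher as deposited, and after scaling 4 were lower, the fourth being Ulk1. Of the 13050 genes tested, 4386 were then higher as deposited and 1463 lower after scaling, against 4374 and 1419 with all libraries. The median of all genes without this library is not given here, and these counts show nothing particular to the 40. Shares apart from those of all genes were also found in other libraries. WT replicate 4 was the highest of its group for 17 of the 40 (42.5%), against 29.2% of all genes. RBX2iCKO replicate 4 was the lowest of its group for 16 (40%), against 25.9%.

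**Figure D5:**
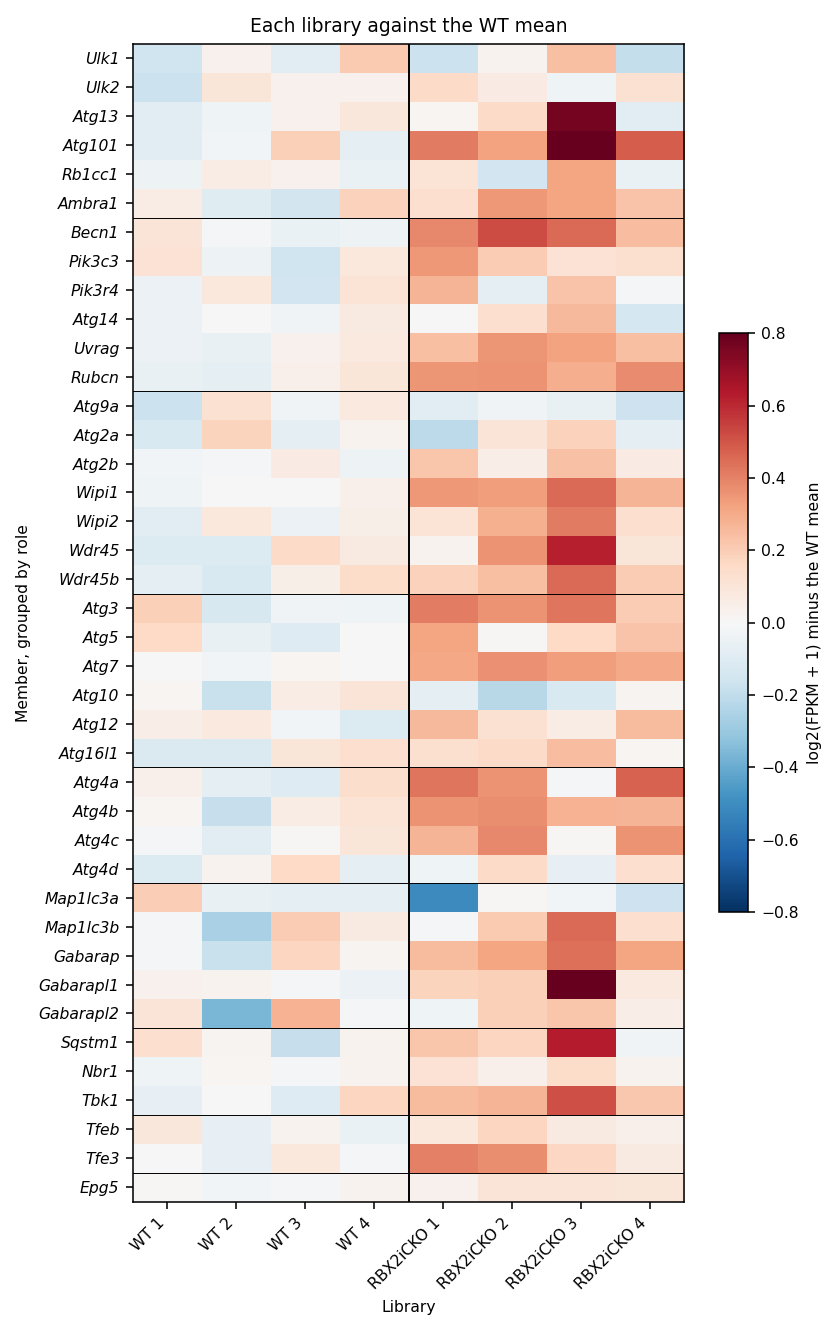
Log2(FPKM + 1) of each member (rows, by role) in each library (columns) minus the mean of the 4 WT libraries, with the colour scale capped at 0.8 in each direction. The RBX2iCKO columns are mostly red, the replicate 3 column most of all for Atg13, Atg101, Gabarapl1, Sqstm1 and Wdr45, and Map1lc3a is blue in RBX2iCKO replicate 1.

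Genes around the core machinery were described from 5 further lists. Among 34 genes of AMPK, mTORC1 and nutrient sensing, which set ULK1 activity, 6 were higher and 0 lower as deposited (17.6% higher), and after scaling 2 were higher and 6 lower. Prkag2, an AMPK gamma subunit gene, was at 8.11 ± 0.556 FPKM for WT and 13.4 ± 1.82 FPKM for RBX2iCKO (SD, n = 4 each), with a log2 difference of 0.66 (limma, SE 0.10, adjusted p = 0.00245), and it kept its call after scaling, at 0.43 (limma adjusted p = 0.0129). Lamtor4, of the lysosomal Ragulator complex that anchors mTORC1, also passed in both fits, at 0.48 (limma, SE 0.08, adjusted p = 0.00337) and 0.23 (limma adjusted p = 0.0485) after scaling. Prkab2, another AMPK subunit gene, and Rragc, a Rag GTPase gene, were higher as deposited at 1.36 and 1.197 times the WT mean and did not pass after scaling. The 6 lower after scaling, named after their values were seen, were Prkaa2, Prkag1, Mtor, Rheb, Rragb and Fnip1. The AMPK subunit genes Prkag2 and Prkag1 thus passed in opposite directions after scaling, with log2 differences of 0.43 and -0.46.

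Among 17 other regulators of the forming membrane and its lipid kinase, 16 were tested, and 7 were higher and 0 lower as deposited (43.8% higher), with 2 higher and 0 lower after scaling. Trp53inp1, a stress-induced gene whose product binds ATG8 proteins, measured 2.92 ± 0.302 FPKM for WT and 6.15 ± 1.69 FPKM for RBX2iCKO (SD, n = 4 each). Its log2 difference was 0.84 (limma, SE 0.16, adjusted p = 0.00539), and 0.64 (limma adjusted p = 0.0204) after scaling. Bcl2, whose product binds Beclin 1 and inhibits it, measured 1.601 ± 0.153 FPKM for WT and 2.80 ± 0.283 FPKM for RBX2iCKO (SD, n = 4 each), with a log2 difference of 0.55 (limma, SE 0.09, adjusted p = 0.00318) and 0.37 (limma adjusted p = 0.014) after scaling. Ei24 and Zfyve1 were higher as deposited, at 1.28 and 1.32 times the WT mean, and did not pass after scaling. Atg9b was at a mean of 0.265 FPKM and was not tested.

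Of 18 genes of fusion between autophagosome and lysosome, 6 were higher and 0 lower as deposited (33.3% higher), and 0 passed in either direction after scaling (limma; 5 had an unadjusted p under 0.05). The 4 with the smallest p were Vps11, of the HOPS tether, at 1.38 times the WT mean, Stx7 and Vamp8, which are SNARE genes, at 1.18 and 1.32 times, and Plekhm1, an adaptor between HOPS and ATG8 proteins, at 1.24 times. Of 13 other cargo receptor genes 12 were tested, 3 were higher and 0 lower as deposited (25% higher), and 0 were higher and 2 lower after scaling. The 3 were Sec62 and Tex264, receptors for the endoplasmic reticulum, and Wdfy3, a scaffold for protein aggregates, at 1.33, 1.36 and 1.26 times the WT mean. The 2 lower after scaling, named after their values were seen, were Calcoco1 and Tollip. Of 12 relatives and regulators of TFEB 11 were tested, with 2 higher (18.2%) and 0 lower as deposited and 0 higher and 3 lower after scaling. Foxo1, a forkhead factor gene, was at 1.35 times the WT mean and Ppp3ca, a calcineurin subunit gene, at 1.14 times, and Foxo4, Ppp3cb and Ppargc1a were the 3 lower after scaling. As deposited, the share of genes higher was above the 33.5% of all genes in 1 of these 5 lists. After scaling, the share lower was above the 10.9% of all genes in 3 of them, at 17.6% for AMPK, mTORC1 and nutrient sensing, 16.7% for other cargo receptors and 27.3% for relatives and regulators of TFEB. The share higher after scaling was above the 8.78% of all genes in 1, at 12.5% for other regulators of the forming membrane. These lists are small, and their shares were not tested.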

How the data were processed

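Gene positions are from GENCODE M21. RNA-seq of heart ventricle was analysed for 4 WT and 4 RBX2iCKO samples, grouped by the genotype label. The authors deposited FPKM for 35275 genes, with mm10 named as the build in the submitters' processing notes. Which aligner and counter were used, and whether counting used strand, is not given in the sources used here. Each library total was taken as the value that most genes gave when read as 1 fragment over their annotated length (542 to 746 genes per library). With annotated lengths, 5857 expressed genes had whole fragments in all libraries, to within 0.01 of a fragment. For the others a length that gave whole fragments was searched for. A length was so obtained for 13049 of the 13050 genes tested, and the fragment counts rest on these lengths. A single fragment per kilobase thus stands for 0.0434 to 0.054 FPKM, depending on the library.

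Genes with a mean of at least 0.5 FPKM were tested with limma 3.58.1 (R 4.3.3) on log2(FPKM + 1) with a mean-variance trend and Benjamini-Hochberg adjustment over all genes, at a threshold of 0.05. Fold changes on this scale understate the change of low genes. The whole test was repeated after median-of-ratios scaling, with size factors of 0.8593 to 0.9452 in WT and 1.0717 to 1.1178 in RBX2iCKO. Ratios of 2 genes within a library were compared by two-sided exact permutation tests over 70 assignments. The test was tried on simulated data with known changes in both directions and the same dispersion for all genes. That simulation held no shift of the median between the groups, and its outcome is not given here. It therefore cannot show how far calls that depend on scaling can be relied on. Limma-voom on the recovered fragments, other pseudocounts and filters, removal of mitochondrial-encoded genes, a covariate, array weights and each library left out were alternatives.

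The 40 genes, the further lists and the motif were chosen with earlier results of these data known. Values of every library are printed for genes past the threshold, for genes of the ratios and for Tfeb, Tfe3, Sqstm1 and Map1lc3b, and up to 4 genes with the smallest p are named from each further list. Between libraries of 1 group the chi-square per degree of freedom, squared differences over counting variance, was 10.9 to 64. No library was therefore treated as a bare resampling of another. This measure cannot show that the libraries came from separate animals, since it covers counting noise only. Of the 40 genes, 8 share exon bases with a tested gene on the opposite strand, and their reads cannot be told apart without the strand setting. These are Atg2b, Atg4d, Atg9a, Gabarapl1, Map1lc3b, Rb1cc1, Rubcn and Sqstm1, with the largest shares in Gabarapl1 (28.3% of exon bases), Atg4d (19.3%) and Sqstm1 (17.3%).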

Additional observations from a re-analysis of the deposited data

Results flagged for a closer look

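In 4 of 100 sets of 4 libraries, 1 library stood far from the other 3, where chance alone gives about 5. Map1lc3a was at 399 FPKM in WT replicate 1 and at 331 to 334 FPKM in the other WT libraries. Gabarapl1 was at 85.2 FPKM in RBX2iCKO replicate 3 and at 48.3 to 52.4 FPKM in the rest of its group. Tbk1 was at 9.64 FPKM in RBX2iCKO replicate 3, against 7.67 to 8 FPKM. Epg5 was lowest in RBX2iCKO replicate 1, at 1.96 FPKM against 2.09 to 2.10 FPKM.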

How the results depend on the processing

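Scaling decided most calls. Median-of-ratios scaling gave 1146 genes higher and 1419 lower, 0 of the 40 higher and 3 lower, and a median of -0.03. The log2 difference then turned below 0 for Ulk2 -0.17, Atg13 -0.03, Rb1cc1 -0.18, Pik3c3 -0.03, Pik3r4 -0.11, Atg14 -0.14, Atg2a -0.22, Atg2b -0.05, Atg5 -0.05, Atg12 -0.06, Atg16l1 -0.10, Atg4d -0.19, Map1lc3b -0.05, Gabarapl2 -0.14, Sqstm1 -0.01, Nbr1 -0.17, Tfeb -0.15 and Epg5 -0.09. Without mitochondrial-encoded genes 2022 genes were higher and 713 lower, 5 of the 40 were higher (Atg101, Becn1, Rubcn, Wipi1 and Atg7), and the median was 0.09 against 0.12 for all genes. Log2 differences below 0 there were Ulk2 -0.04, Rb1cc1 -0.06, Pik3r4 -0.00046, Atg14 -0.04, Atg2a -0.11, Atg4d -0.07, Gabarapl2 -0.01, Nbr1 -0.04 and Tfeb -0.02. With the number series of the titles as a covariate Atg2a was at -0.02, and with array weights Rb1cc1 was at -4e-05. The cause of these changes was not tested. Limma-voom called 14 of the 40 higher, the 11 with Ambra1, Wipi2 and Tfe3. The share of all genes that limma-voom called is not given here, so this count shows nothing particular to the 40. By limma as deposited that share was 33.5%. The covariate ended the call of Wdr45b and of no other gene of the 11. Array weights ended that of Wdr45b and added Wipi2, Atg12, Atg4a and Atg4c.

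With each library left out in turn, as deposited, 2895 to 4386 genes were higher, the fewest without WT replicate 2, and 327 to 452 were lower, while 9 to 12 of the 40 were higher, 0 were lower and their median was 0.15 to 0.23. Ambra1 was called without WT replicate 4, Wipi2 without RBX2iCKO replicate 1, Atg4a and Atg4c without RBX2iCKO replicate 3 and Tfe3 without RBX2iCKO replicate 4. After scaling these ranges were 677 to 1367 genes higher, 979 to 1463 lower, 0 of the 40 higher, 1 to 4 lower and a median of -0.08 to 0.01. Results whose direction turned in some of these settings spanned, as log2 differences, Ulk1 -0.36 to 0.05, Ulk2 -0.23 to 0.11, Atg13 -0.22 to 0.31, Rb1cc1 -0.27 to 0.12, Ambra1 -0.02 to 0.32, Pik3c3 -0.09 to 0.24, Pik3r4 -0.17 to 0.16, Atg14 -0.21 to 0.13, Atg2a -0.28 to 0.07, Atg2b -0.09 to 0.17, Wipi2 -0.06 to 0.28, Wdr45 -0.08 to 0.36, Wdr45b -0.04 to 0.32, Atg5 -0.09 to 0.23, Atg12 -0.11 to 0.21, Atg16l1 -0.15 to 0.18, Atg4d -0.24 to 0.10, Map1lc3b -0.14 to 0.27, Gabarapl1 -0.11 to 0.42, Gabarapl2 -0.23 to 0.20, Sqstm1 -0.14 to 0.34, Nbr1 -0.19 to 0.10, Tfeb -0.18 to 0.12, Epg5 -0.10 to 0.10, the Gabarapl1 to Gabarap ratio -0.15 to 0.09 and the Wdr45 to Wdr45b ratio -0.05 to 0.07. The exact permutation test of a ratio with a library left out cannot go below p = 0.0571. No paired analysis was possible because the labels number no replicates and tie no WT sample to an RBX2iCKO sample. Depth limits the lowest genes most, with 91 fragments behind the lowest value of Atg4c.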
